A study of Mus musculus with 14 samples.

Results

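Metallothioneins are small cysteine-rich proteins that hold zinc, copper and other metals in the cytosol, and they are the best known part of the cell's zinc buffer. Described here are 7 genes of zinc handling in mouse oocytes, taken by symbol from a list and making up 7 of the 18562 genes in the deposited count tables. The list holds the metallothioneins Mt1 and Mt2, the metal-sensing transcription factor gene Mtf1, the zinc exporter genes Slc30a1 and Slc30a9, and the zinc importer genes Slc39a6 and Slc39a10. Mt1 was chosen by its higher counts in CKO than in WT oocytes, so the difference of Mt1 between the genotypes is a description with no test. The other 6 were named beside it.

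RNA was measured in 14 libraries of oocytes at 2 stages by SMART-Seq2, which copies polyadenylated RNA into full-length cDNA and amplifies it. Oocytes with a germinal vesicle (GV), the large nucleus of meiotic prophase, make up the earlier stage. Ovulated oocytes, which have resumed meiosis and left the ovary, make up the later one. The group called WT was Clpx fl/fl with no Cre, and the group called CKO was Clpx fl/fl with Zp3-Cre, so both carry the floxed allele. The zona pellucida promoter of Zp3 drives Cre in growing oocytes, and the deleted gene, Clpx, encodes the unfoldase of a protease in the mitochondrial matrix. There were 4 WT and 4 CKO libraries of GV oocytes, and 3 WT and 3 CKO libraries of ovulated oocytes. The labels do not say how many oocytes or animals a library came from, whether libraries of a group came from separate animals, or how they were batched. P-values therefore measure only the spread between these libraries, which may be technical.

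Every CKO library carries Cre and no WT library does, so the loss of Clpx and the transgene cannot be told apart. Some Cre constructs end in the polyadenylation signal of mouse Mt1, and whether this line does is not given in the sources used here. Reads from such a transcript could be counted as Mt1, and the tables hold 1 value per gene and no read positions. Transcript of the endogenous Mt1 gene and transcript of such a construct cannot be told apart here.

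Zinc is taken into the cytosol by importers of the ZIP family (Slc39a genes) and moved out of it, across the cell membrane or into vesicles, by the ZnT family (Slc30a genes). When free zinc rises, MTF1 binds metal response elements, and the genes it is best known to induce are Mt1, Mt2 and Slc30a1. Mouse oocytes take up zinc as they mature and release it in zinc sparks at fertilisation, and SLC39A6 and SLC39A10 are the importers described for that uptake.

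The promoters of the 3 classical MTF1 targets are shown because they carry the metal response element. Whether these promoters set the counts of the 3 genes in these libraries was not tested. Each is the sense strand of the gene, from 250 bases before to 50 after a start site of RefSeq on GRCm38.p6, the patched form of mm10. Capitals mark each match to the element's core, spelled TGCACNC or TGCGCNC and searched on both strands, so that a match on the other strand reads as its reverse complement.
Mt1: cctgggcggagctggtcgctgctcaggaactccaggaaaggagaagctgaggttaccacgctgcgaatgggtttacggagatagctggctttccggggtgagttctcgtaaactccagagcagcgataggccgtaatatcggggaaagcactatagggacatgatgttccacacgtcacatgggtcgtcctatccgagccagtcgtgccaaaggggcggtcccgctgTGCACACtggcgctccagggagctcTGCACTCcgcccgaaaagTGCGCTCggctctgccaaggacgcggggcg
Mt2: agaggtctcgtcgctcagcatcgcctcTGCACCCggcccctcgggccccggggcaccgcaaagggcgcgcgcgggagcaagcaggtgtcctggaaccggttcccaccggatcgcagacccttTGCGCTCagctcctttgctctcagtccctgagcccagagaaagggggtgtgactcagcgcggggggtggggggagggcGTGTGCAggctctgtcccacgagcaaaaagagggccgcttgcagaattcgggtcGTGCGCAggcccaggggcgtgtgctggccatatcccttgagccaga
Slc30a1: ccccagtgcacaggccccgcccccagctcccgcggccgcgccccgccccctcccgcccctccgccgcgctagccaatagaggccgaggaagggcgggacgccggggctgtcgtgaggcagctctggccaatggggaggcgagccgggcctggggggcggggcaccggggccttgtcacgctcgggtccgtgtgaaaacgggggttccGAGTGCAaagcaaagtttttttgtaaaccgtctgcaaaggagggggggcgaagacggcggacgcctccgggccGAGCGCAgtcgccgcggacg

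The Mt1 window is chr8:94178839-94179138 on the + strand, the one for Mt2 is chr8:94172368-94172667 on the + strand, and that of Slc30a1 is chr1:191906531-191906830 on the + strand. The window of Mt1 held 3 matches, between 23 bases before and 26 bases after the start site. Mt2 held 4 matches and Slc30a1 held 2. Of 32851 windows of the same length in the mouse table, 25.7% held at least 1 match, 7.11% at least 2, 1.97% at least 3 and 0.517% at least 4. The windows of Mtf1 and Slc30a9, and both windows of Slc39a10, held none, and Slc39a6 had no window. The metallothionein genes Mt3 and Mt4, which are not on the list, held 1 each. The antioxidant response element, spelled TGACNNNGC and searched on both strands, was found once each in Mt2 and Slc30a1 and in 12.4% of all windows. These are matches of letters near 1 annotated start. The RefSeq gene model of Mt1 begins further upstream, at 94178883, and the GENCODE transcript Mt1-201 begins at 94179082.

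**Figure D1:**
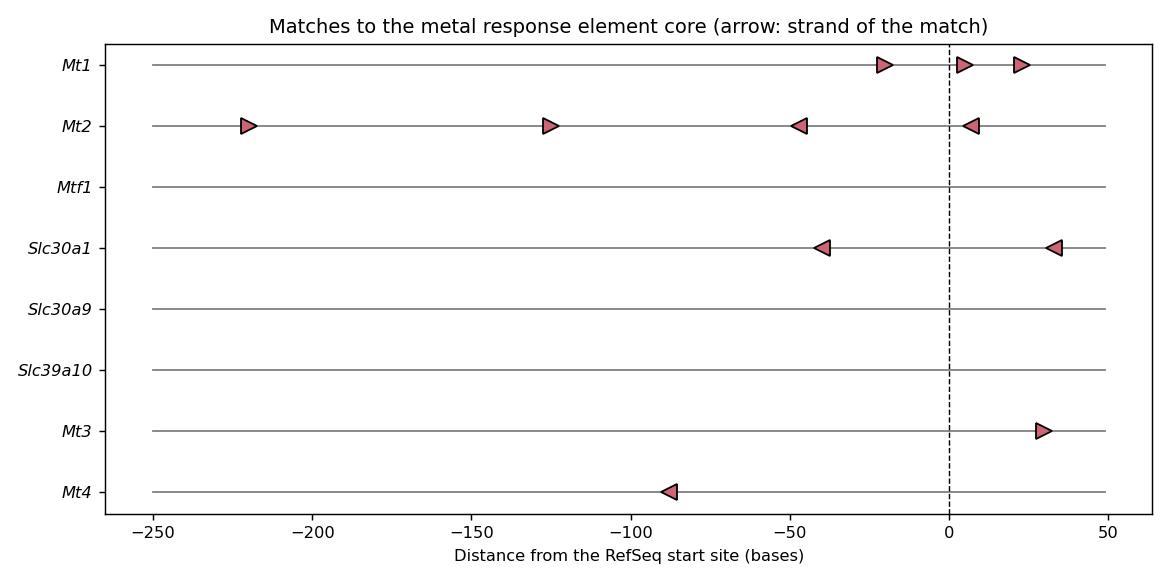
Position of each match to the core of the metal response element, in bases from the RefSeq start site (dashed line), in the first window of the 6 listed genes that had one and of Mt3 and Mt4. Arrows point right for a match on the strand of the gene and left for the other strand, and Mt1 has 3 arrows, Mt2 has 4 and Slc30a1 has 2.

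Total estimated counts were between 25086506 and 28471453 per library. Clpx, which checks the labels, lay between 39.6 and 58.1 CPM (counts per 1e+06 counted, scaled over the 14 libraries by TMM so that groups share 1 scale) in GV WT oocytes and between 0.676 and 1.44 CPM in GV CKO oocytes. In ovulated oocytes it lay between 17 and 19.1 CPM in WT and between 0.269 and 0.575 CPM in CKO. All 14 markers of oocytes had at least 1 FPKM (counts scaled to gene length and depth, from the authors) in every library. Of 16 markers of granulosa and cumulus cells, 2 did so in every GV library and 3 in every ovulated library, and Amh and Foxl2 were at 0 to 0.05 FPKM in the GV libraries. Cyp19a1, also on that list, was at 9.29 to 23.64 FPKM in the GV and 26.23 to 49.26 FPKM in the ovulated libraries. Nr5a2 was at 1.09 to 4.09 and 3.01 to 5.06 FPKM, Kitl at 0.21 to 0.73 and 1.05 to 2.17 FPKM, and Tnfaip6 at 0 to 9.97 FPKM in the ovulated libraries. Amh, Foxl2, Ptx3 and Tnfaip6 were not listed at both stages, and the other 12 of the 16 markers were summed. Their summed level was 53.79 to 69.56 CPM in GV WT and 42.81 to 67.68 CPM in GV CKO oocytes. It was 64.76 to 128.5 CPM in ovulated WT and 65.52 to 107 CPM in ovulated CKO oocytes. Of 11 markers of theca, stroma, endothelium and blood, 1 had at least 1 FPKM in every library of either stage. In such libraries fewer cells of a type and less RNA per cell cannot be told apart.

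Mt1 differed most between the genotypes among the 7 genes, as it was chosen to. In GV WT oocytes it was at 0.724, 1.96, 2.67 and 2.26 CPM, from 22, 46, 81 and 45 counts. The 4 GV CKO libraries had 130, 125, 119 and 87.9 CPM, from 3075, 2517, 3244 and 1592 counts. Every CKO library stood above every WT library, as for 1.42% of all genes tested, and the lowest CKO value was 33-fold the highest WT value. The group means were 1.9 ± 0.838 CPM (SD, n = 4) and 115 ± 18.9 CPM (SD, n = 4), a ratio of 60.7, and the fitted log2 fold change was 5.92 (SE 0.35).

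In ovulated oocytes Mt1 was at 0.354, 0.263 and 2.33 CPM in WT and at 85.5, 51.1 and 23.3 CPM in CKO. The groups again stood apart, as they did upward for 5.45% of all genes tested, with the lowest CKO library 9.99-fold above the highest WT library. The means were 0.982 ± 1.17 CPM (SD, n = 3) and 53.3 ± 31.2 CPM (SD, n = 3), a ratio of 54.2. The fitted log2 fold change was 5.72 (SE 0.83), and it was 7.33 without WT replicate 3, the library with 69 counts where the other WT libraries had 10 and 9. The ovulated CKO libraries spread more widely than the GV CKO libraries, with a coefficient of variation of 58.5% against 16.3%.

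Ranked by mean FPKM, Mt1 was at place 5446 of the 18076 genes listed in GV oocytes in WT and at place 311 in CKO. In ovulated oocytes it was at place 6654 of 16903 in WT and at place 441 in CKO. The order of its group levels was GV CKO, ovulated CKO, GV WT and ovulated WT. Its lowest GV CKO library, at 87.9 CPM, was close to the highest ovulated CKO library, at 85.5 CPM, and the WT groups of the stages overlapped.

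Mt2, the other metallothionein found in most tissues, starts 6.3 kb from Mt1 on the same chromosome. Mt2 had few counts in every group, with FPKM means of 0.563 to 1.29. Its counts were 3, 11, 21 and 9 in GV WT and 9, 5, 21 and 1 in GV CKO oocytes, and the groups overlapped. They were 4, 4 and 7 in ovulated WT and 13, 17 and 1 in ovulated CKO oocytes, where the groups overlapped too. The sums were 44 counts (exact 95% Poisson interval 32 to 59.1) in GV WT and 36 (25.2 to 49.8) in GV CKO libraries. In ovulated oocytes they were 15 (8.4 to 24.7) in WT and 31 (21.1 to 44) in CKO, and these intervals cover counting error only. Mt2 did not pass the filter on low counts of either within-stage fit. In the fit of all 14 libraries its log2 fold change, CKO over WT, was -0.19 (95% interval -1.86 to 1.48, edgeR adjusted p = 0.999) at the GV stage and 0.87 (-1.13 to 2.87, adjusted p = 0.721) at the ovulated stage. These intervals are wide, and they lie below the fitted value of Mt1 at each stage, which was chosen for its difference.

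Per length, the FPKM of Mt1 was 2.35 to 10.1 times that of Mt2 in the 7 WT libraries and 115 to 1660 times in the 7 CKO libraries. The GENCODE transcripts Mt1-201 and Mt2-201 have 549 and 511 bases in 3 exons each and share 67.9% of 486 aligned positions. Their coding parts of 183 bases without the stop codon share 79.2%, and the longest run of bases they have in common is 20. How the authors' counting split reads between genes is not given in the sources used here.

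Mt4, best known from stratified epithelia, was the more abundant metallothionein of WT oocytes. Its FPKM was 14 ± 2.3 (SD, n = 4) in GV WT, 11.7 ± 6.23 (SD, n = 4) in GV CKO, 84.8 ± 68.1 (SD, n = 3) in ovulated WT and 41.2 ± 9.6 (SD, n = 3) in ovulated CKO oocytes. Mt4 was above Mt1 in FPKM in each of the 7 WT libraries and below it in each of the 7 CKO libraries. Between genotypes its log2 fold change was -0.13 (edgeR adjusted p = 0.951) in GV and -1.10 (adjusted p = 0.659) in ovulated oocytes. The ovulated value was -0.37 without WT replicate 2, which had 162.62 FPKM where the other WT libraries had 36.1 and 55.59. Mt3, the brain metallothionein, was listed in the GV table alone, with 7 counts in the 4 WT and 1 count in the 4 CKO libraries.

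**Figure D2:**
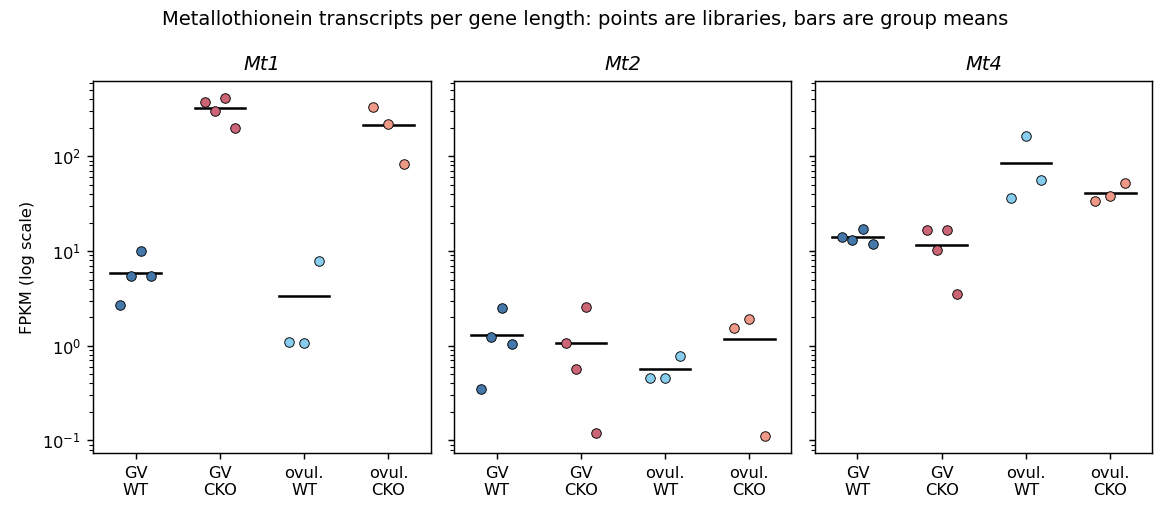
FPKM of Mt1, Mt2 and Mt4 on a shared log axis in each library (points) of the 4 groups, with the group mean as a bar. Mt1 is at 199.69 to 413.37 in GV CKO and lower than Mt4 in every WT library, whereas Mt2 stays below 3 FPKM in all 14 libraries.

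Of 9 genes annotated within 100 kb of the start of Mt1, 5 were listed in the tables and 3 were tested at each stage. Apart from Mt1, which is not tested here, none of them passed between genotypes at either stage. Of all genes, 0.0245% passed in GV and 0.00830% in ovulated oocytes. Nup93, a nuclear pore gene 35.7 kb away, was at -0.18 (edgeR adjusted p = 0.896) in GV and -0.01 (adjusted p = 0.992) in ovulated oocytes, as log2 of CKO over WT.

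The remaining genes of the list were tested between genotypes within each stage. In GV oocytes 3 of 12265 genes passed edgeR's quasi-likelihood test at a Benjamini-Hochberg adjusted p under 0.05 (0.0245%; 704 at an unadjusted p under 0.05, and 39 with DESeq2), and 6 did without CKO replicate 1 or without CKO replicate 4. None of the 5 tested genes other than Mt1 passed, and their median log2 fold change was 0.38, against 0.02 over all genes. In ovulated oocytes 1 of 12044 genes passed (0.00830%; 935 unadjusted, 114 with DESeq2), which was Clpx, and none of these 5 did. The ovulated count was 201 without CKO replicate 3 and 3 without WT replicate 3, and the 5 genes passed under no alternative run at either stage. Their median there was 0.15, against -0.0005 over all genes. All 5 GV values and 4 of the 5 ovulated values were above 0, where 52.9% of all genes were in GV and 50% in ovulated oocytes. With scaling to total counts, however, Mtf1 and Slc30a9 were below 0 in GV oocytes, and with the size factors of DESeq2 Mtf1 was below 0 in ovulated oocytes.

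The sensor came first among them. Mtf1 was at 43.2, 40.8, 44 and 36.4 CPM in GV WT and at 50, 48.2, 49.4 and 31.3 CPM in GV CKO oocytes, with CKO replicate 4 as the lowest library of the 8. Its log2 fold change was 0.11 (95% interval -0.29 to 0.51, edgeR adjusted p = 0.929). In ovulated oocytes it was at 53.2, 88.9 and 43.6 CPM in WT and 66.3, 71.6 and 51.9 CPM in CKO, with overlapping groups and a log2 fold change of 0.006 (-0.69 to 0.70, adjusted p = 0.997).

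Slc30a1 encodes the exporter of the cell membrane and, like Mt1, is a classical target of MTF1. In GV oocytes it was at 4.28, 6.22, 6.22 and 3.47 CPM in WT and 9.55, 5.49, 7.2 and 4.25 CPM in CKO, and the groups overlapped. The log2 fold change was 0.38 (95% interval -0.26 to 1.02, edgeR adjusted p = 0.86). In ovulated oocytes the WT libraries had 12, 18.8 and 10 CPM and the CKO libraries 20.4, 22.9 and 22.3 CPM. Every CKO library was above every WT library there, as for 5.45% of all genes tested. The ovulated log2 fold change of 0.67 (-0.07 to 1.41) did not pass (adjusted p = 0.687).

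Slc30a9 encodes a transporter that carries zinc out of mitochondria. In GV oocytes it was at 3.19, 2.56, 3.52 and 3.32 CPM in WT and 3.04, 3.12, 3.49 and 4.59 CPM in CKO. These groups overlapped, with a log2 fold change of 0.17 (95% interval -0.39 to 0.73, edgeR adjusted p = 0.918). In ovulated oocytes it was at 8.54, 8.17 and 16 CPM in WT and 10.4, 5.32 and 8.35 CPM in CKO. The log2 fold change was -0.46 (-1.37 to 0.45, adjusted p = 0.807), the only value below 0 among the 5 genes.

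Slc39a6 and Slc39a10 encode importers that can form a complex at the cell membrane. In GV oocytes Slc39a6 was at 97.1, 132, 150 and 127 CPM in WT and 226, 170, 129 and 138 CPM in CKO. The groups overlapped, and the log2 fold change was 0.38 (95% interval -0.07 to 0.83, edgeR adjusted p = 0.834). In ovulated oocytes it was at 80.9, 139 and 120 CPM in WT and 163, 220 and 111 CPM in CKO, with a log2 fold change of 0.51 (-0.18 to 1.21, adjusted p = 0.733). CKO replicate 3 lay within the WT range there.

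Slc39a10 was at 112, 196, 193 and 152 CPM in GV WT and at 256, 245, 214 and 149 CPM in GV CKO oocytes. CKO replicate 4 fell inside the WT range, and the log2 fold change was 0.40 (95% interval -0.09 to 0.88, edgeR adjusted p = 0.836). In ovulated oocytes it was at 602, 407 and 482 CPM in WT and 556, 498 and 611 CPM in CKO. The groups overlapped, with a log2 fold change of 0.15 (-0.47 to 0.76, adjusted p = 0.907).

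The upper ends of these intervals lie at no more than 1.41 on the log2 scale for the 5 genes at either stage. That is under the value of Mt1, which was chosen for its difference. A p that misses the threshold does not show that the genotypes were equal.

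**Figure D3:**
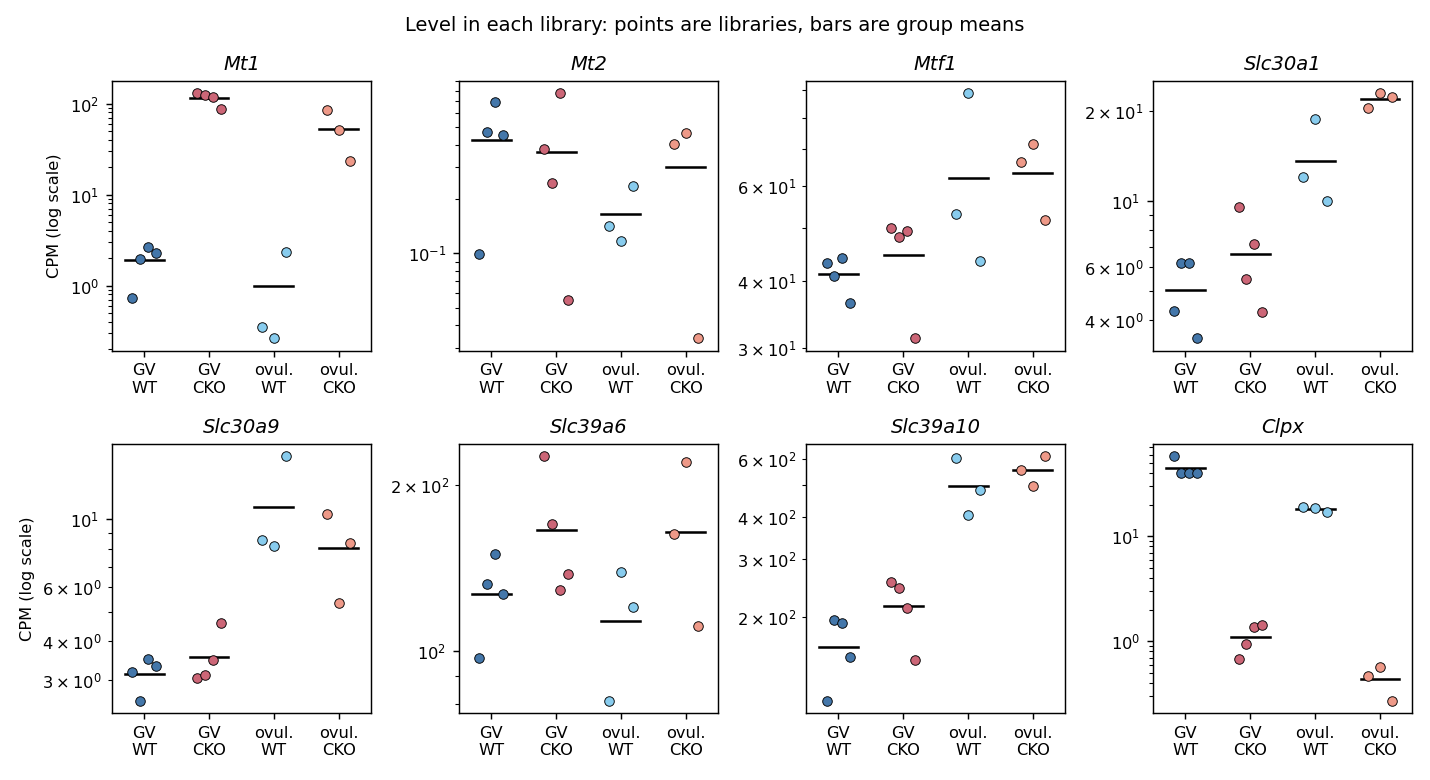
Level of the 7 genes and of Clpx in each library, in CPM on log axes that differ between panels; points are libraries in replicate order, and bars are group means. Mt1 is the gene whose CKO libraries stand far above the WT libraries at both stages. Slc30a1, Slc30a9 and Slc39a10 are higher in every ovulated library than in any GV library of the same genotype, as are 27.3% of genes in WT and 27.4% in CKO.

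The second question was how zinc handling differed between GV and ovulated oocytes. Mt1 was chosen by its high CKO counts, so its stage change in CKO is a description with no test. Slc39a10, Slc30a1 and Slc30a9 rose in ovulated oocytes of both genotypes. Mt2, Mtf1 and Slc39a6 did not pass in either genotype, Mt1 did not pass in WT, and no tested gene of the list fell. Among all 13158 genes tested 29.7% rose and 34.0% fell in WT, and 25.8% rose and 29.9% fell in CKO, so changes of this kind were common and 3 of 7 is nothing particular to the list. Because cDNA is primed on poly(A), the amount of a transcript and the length of its tail cannot be told apart. The stages came in separate tables, so stage and table cannot be told apart either, and levels are relative to all RNA counted in a library. The median log2 fold change of all genes was -0.08 in WT and -0.14 in CKO, and with scaling to total counts it was 0.26 and 0.45. In CKO 3397 genes were higher and 3935 lower in ovulated oocytes, and with that scaling the split was 4688 higher and 2257 lower.

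Slc39a10 had the highest ovulated level of the 7 genes in CPM in both genotypes, and in FPKM in WT, whereas Mt1 was above it in FPKM in CKO (212 against 142). In WT its GV mean was 163 ± 39.6 CPM (SD, n = 4) and its ovulated mean 497 ± 98.4 CPM (SD, n = 3), which is 1.61 on the log2 scale (SE 0.26, edgeR adjusted p = 6.77e-05). In CKO the means were 216 ± 48.1 CPM (SD, n = 4) and 555 ± 56.5 CPM (SD, n = 3), which is 1.36 on that scale (SE 0.26, adjusted p = 0.000394). All ovulated libraries of a genotype were above all its GV libraries, as for 27.3% of genes in WT and 27.4% in CKO. Its partner Slc39a6 did not share the rise, with log2 fold changes of -0.16 (95% interval -0.76 to 0.44, adjusted p = 0.634) in WT and -0.01 (-0.61 to 0.59, adjusted p = 0.976) in CKO. In FPKM, which compares genes per length, both importers were alike in GV WT oocytes, at 31.5 ± 10.1 (SD, n = 4) for Slc39a10 and 32.6 ± 9.36 (SD, n = 4) for Slc39a6. In ovulated WT oocytes they were at 119 ± 8.02 (SD, n = 3) and 37.5 ± 14.4 (SD, n = 3).

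Slc30a1 had a GV mean of 5.05 ± 1.39 CPM (SD, n = 4) and an ovulated mean of 13.6 ± 4.61 CPM (SD, n = 3) in WT, a difference of 1.43 on the log2 scale (SE 0.32, edgeR adjusted p = 0.00105). Its CKO means were 6.62 ± 2.3 CPM (SD, n = 4) in GV and 21.9 ± 1.31 CPM (SD, n = 3) in ovulated oocytes, a difference of 1.72 on that scale (SE 0.32, adjusted p = 0.000319). Slc30a9 rose too, with WT means of 3.15 ± 0.415 CPM (SD, n = 4) in GV and 10.9 ± 4.42 CPM (SD, n = 3) in ovulated oocytes. Its CKO means were 3.56 ± 0.714 CPM (SD, n = 4) and 8.02 ± 2.56 CPM (SD, n = 3). Its log2 fold changes were 1.79 (SE 0.32, adjusted p = 0.000171) and 1.18 (SE 0.32, adjusted p = 0.00559). For both exporters the ovulated libraries of a genotype stood above all its GV libraries, as for 27.3% of genes in WT and 27.4% in CKO. Both are low-abundance transcripts beside the importers, with FPKM means between 0.918 and 5.46 over the groups.

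Mt2 and the sensor Mtf1 did not pass between stages in either genotype, and Mt1 did not pass in WT. Mtf1 had log2 fold changes, ovulated over GV, of 0.59 (95% interval 0.05 to 1.13, edgeR adjusted p = 0.0545) in WT and 0.50 (-0.04 to 1.04, adjusted p = 0.108) in CKO. Its WT value passed with DESeq2 (0.66, adjusted p = 0.0357), with the size factors of DESeq2, and with scaling to total counts (0.96, adjusted p = 0.0323). It also passed without ovulated WT replicate 1 or without replicate 3. Its CKO value passed with scaling to total counts (1.07, adjusted p = 0.0208) and on FPKM. Mt2 had log2 fold changes of -1.35 (-3.26 to 0.56, adjusted p = 0.199) in WT and -0.29 (-2.10 to 1.51, adjusted p = 0.785) in CKO. Mt1 was lower in the ovulated groups of both genotypes. Its log2 fold changes were -0.95 (-2.27 to 0.36, adjusted p = 0.189) in WT and, as a description with no test, -1.12 (-2.29 to 0.06) in CKO. The WT value was -2.61 (adjusted p = 0.00161) without ovulated WT replicate 3, so whether it passed turned on 1 library. The CKO value was -1.29 with limma-voom and -1.61 without ovulated CKO replicate 1. Mt4 rose in ovulated oocytes, with a log2 fold change of 2.43 (SE 0.46, adjusted p = 0.000227) in WT and 1.45 (SE 0.45, adjusted p = 0.0119) in CKO. The CKO value was 1.16 (adjusted p = 0.0651) without ovulated CKO replicate 3.

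Whether the difference between genotypes changed with the stage was tested over all 14 libraries. Of 13158 genes 1 passed (0.00760%, with 1205 at an unadjusted p under 0.05, and 64 with DESeq2). None of the 6 listed genes other than Mt1 did. The count was 498 without ovulated CKO replicate 3, 2 without ovulated WT replicate 3, and 0 without any of 10 other single libraries. For Mt1 the log2 fold change of CKO over WT differed between ovulated and GV oocytes by -0.16 (SE 0.84). Mt1 was chosen by its genotype difference, so this value is a description with no test. The sign of that difference turned under other scalings and when single libraries were left out, and without ovulated WT replicate 3 it was 1.48.

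**Figure D4:**
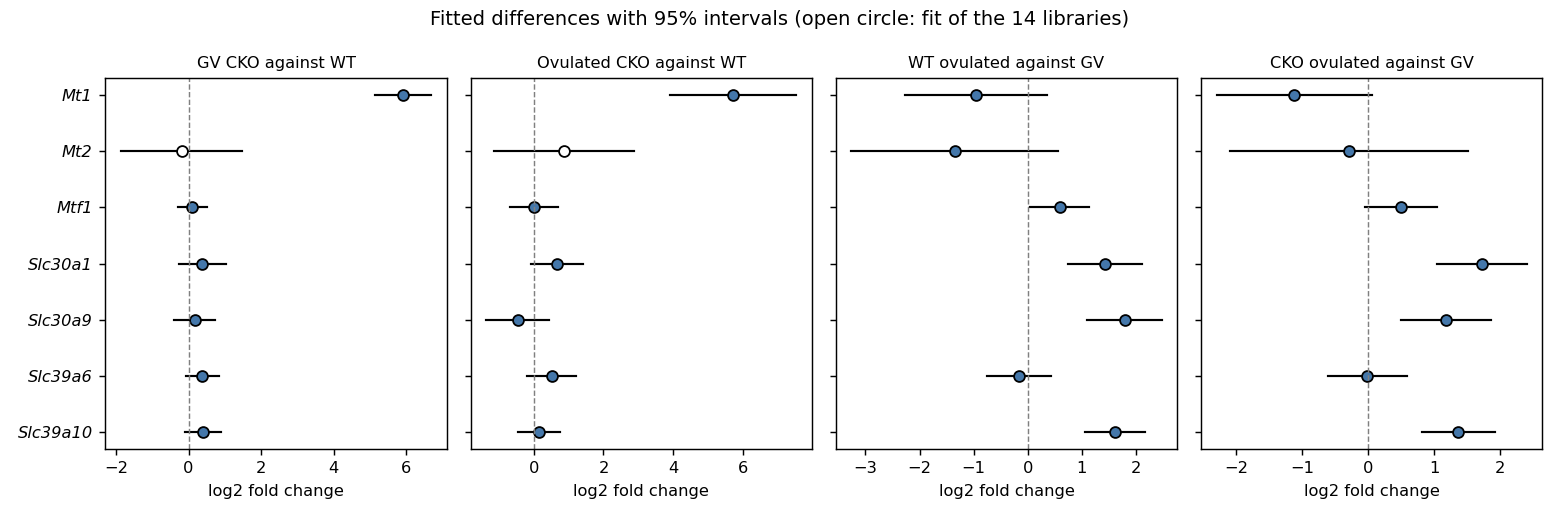
Log2 fold change (point) and 95% interval (line) of the 7 genes in the 4 comparisons named above the panels, on axes that differ between panels; open circles are values from the fit of the 14 libraries, used where a gene missed the filter. Mt1 stands near 6 between genotypes at both stages, which is a description since Mt1 was chosen for it, and Slc30a1, Slc30a9 and Slc39a10 lie above 0 in both stage comparisons.

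The rest of the transporter families was read beside the listed genes. No ZnT or ZIP gene passed between genotypes, of 8 and 10 tested in GV and 8 and 8 tested in ovulated oocytes. Of all genes, 0.0245% passed there in GV and 0.00830% in ovulated oocytes. Between stages all 8 tested ZnT genes passed in WT, 4 higher and 4 lower, where 29.7% of all genes were higher and 34.0% lower. In CKO 7 passed, 4 higher and 3 lower, where 25.8% of all genes were higher and 29.9% lower. With Slc30a1 and Slc30a9 rose Slc30a5, which loads the secretory pathway, by 1.00 on the log2 scale (edgeR adjusted p = 0.00261) in WT, and Slc30a4, which fills vesicles, by 1.66 (adjusted p = 0.00469). Slc30a3, known for loading zinc into synaptic vesicles, had the highest mean FPKM of the family over the 14 libraries and fell. In ovulated oocytes Slc30a5 was above it, at 32.3 ± 10.7 FPKM (SD, n = 3) in WT and 43 ± 5.89 FPKM (SD, n = 3) in CKO. The FPKM of Slc30a3 was 246 ± 88.6 (SD, n = 4) in GV WT and 20.3 ± 7.56 (SD, n = 3) in ovulated WT oocytes, or -3.90 on the log2 scale (SE 0.35, adjusted p = 6.71e-07), and it was -3.28 (SE 0.34, adjusted p = 3.82e-06) in CKO. Slc30a6 fell by 1.77 (adjusted p = 0.00654) and Slc30a7 by 2.01 (adjusted p = 0.00355) on the log2 scale in WT, both transporters of the secretory pathway. Slc30a2 fell by 2.01 (adjusted p = 0.00208) in WT and had -0.55 (adjusted p = 0.336) in CKO, at FPKM group means of 0.443 to 1.38.

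Of 12 ZIP genes tested between stages, 3 rose and 1 fell in WT, and 3 rose and 3 fell in CKO, to be read against the same shares of all genes. With Slc39a10, Slc39a9 rose by 0.69 on the log2 scale (edgeR adjusted p = 0.0315) in WT and Slc39a4, the intestinal importer, by 1.80 (adjusted p = 0.00606), from FPKM means of 0.125 to 0.53. Slc39a14, which also carries iron, fell, at -3.33 on the log2 scale (adjusted p = 0.00553) in WT and -2.72 (adjusted p = 0.0139) in CKO. In CKO Slc39a3 (-2.52, adjusted p = 0.0146) and Slc39a13 (-1.06, adjusted p = 0.00567) fell as well, but no ZIP gene passed the test of a difference between the genotypes in the stage change. The ovulated CKO libraries together held only 12 counts of Slc39a3 and 10 of Slc39a14, and the ovulated WT libraries held 5 of Slc39a14. With another scaling, FPKM, limma-voom or a single library left out, the CKO calls of Slc39a3, Slc39a13, Slc39a14 and Slc30a7 and both calls of Slc39a9 and Slc30a6 were lost in at least 1 setting. Slc39a10 and Slc39a6 had the highest mean FPKM of the family over the 14 libraries, at 75.6 and 40.4.

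**Figure D5:**
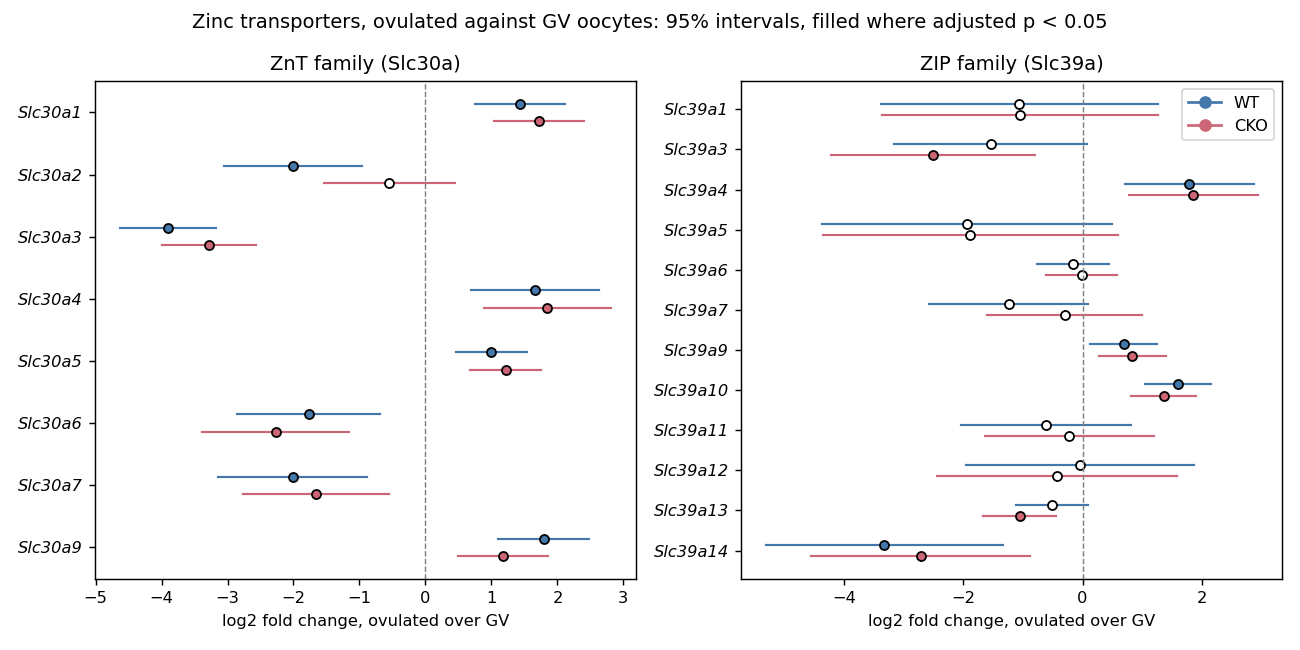
Log2 fold change, ovulated over GV, with its 95% interval for the 8 ZnT genes and 12 ZIP genes tested, in WT (blue) and CKO (red), filled where the edgeR adjusted p is under 0.05. Slc30a3 lies near -4 in WT, and Slc30a1, Slc30a4, Slc30a5, Slc30a9, Slc39a4, Slc39a9 and Slc39a10 are filled to the right of 0 in both genotypes.

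Other lists that touch Mt1 were described in the same way. Of all genes tested between genotypes, 0.0245% passed in GV and 0.00830% in ovulated oocytes, so none passing in lists this short is no result about them. Of 11 genes reported as MTF1 targets, 7 were tested at each stage between genotypes, and none of the 6 other than Mt1 passed at either stage. No tested gene of copper handling (9 in GV, 8 in ovulated oocytes), of iron handling (8 and 7), of the NRF2 response to oxidants (9 and 8) or of the glucocorticoid receptor response (5 and 5) passed between genotypes. Their median log2 fold changes, CKO over WT, were 0.17, 0.26, 0.02 and 0.24 in GV oocytes, against 0.02 over all genes, and 0.08, 0.58, 0.13 and -0.28 in ovulated oocytes, against -0.0005. The largest value among them was that of Cox17, the copper chaperone of cytochrome oxidase, at 2.56 (adjusted p = 0.524) in ovulated oocytes, where its groups overlapped.

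Between stages these lists went in mixed directions in WT, where 29.7% of all genes rose and 34.0% fell. Among 8 tested MTF1 targets 3 rose, Slc30a1, Slc39a10 and the glutathione synthesis gene Gclc (log2 fold change 2.13, edgeR adjusted p = 0.000251), and 3 fell, Selenow (-1.60, adjusted p = 0.000603), Selenoh (-1.20, adjusted p = 0.0108) and Csrp1 (-2.16, adjusted p = 0.0141). Among 9 copper genes Atp7a, a copper exporter, rose (1.69, adjusted p = 2.81e-05) and 5 fell, among them the copper chaperones Ccs (-5.38, adjusted p = 1.19e-05), Sco2 (-8.53, adjusted p = 1.35e-05) and Cox17 (-3.53, adjusted p = 0.00011), and Commd1 (-1.69, adjusted p = 0.000154). Among 8 iron genes 2 rose, Ireb2 (2.16, adjusted p = 0.00112) and the ferritin receptor gene Ncoa4 (0.79, adjusted p = 0.0353), and 4 fell, the importer Slc11a2 (-3.04, adjusted p = 6.11e-07), Aco1 (-3.05, adjusted p = 1.28e-05), Slc25a28 (-5.53, adjusted p = 0.000943) and ferritin heavy chain Fth1 (-2.11, adjusted p = 0.00623). The ovulated WT libraries together held only 17 counts of Ccs, 1.25 of Sco2 and 2 of Slc25a28, so the sizes of these falls are uncertain.

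Against the same shares of all genes, 4 of 9 NRF2 targets rose, among them Nqo1 (log2 fold change 1.80, edgeR adjusted p = 9.39e-05), Txnrd1 (0.74, adjusted p = 0.0107) and the cystine transporter gene Slc7a11 (0.75, adjusted p = 0.0386), and G6pdx (-4.27, adjusted p = 1.55e-06) and Me1 (-1.04, adjusted p = 0.0049) fell. Of 5 glucocorticoid genes 3 rose, the receptor gene Nr3c1 (2.33, adjusted p = 1.42e-05), Fkbp5 (1.75, adjusted p = 0.00358) and Dusp1 (0.90, adjusted p = 0.0155), and 2 did not pass. Of the zinc-binding egg proteins, Fbxo43, which encodes the meiotic inhibitor EMI2, rose (0.89, adjusted p = 0.00925), and Astl, which encodes the protease ovastacin, fell (-1.56, adjusted p = 0.00569). The WT calls of Csrp1, Selenoh, Slc7a11, Ncoa4, Dusp1 and Txnrd1 were each lost in at least 1 run with a single library left out. For Ncoa4 this held in 5 of 7 such runs and for Slc7a11 in 4 of 7. Csrp1 and Slc7a11 also lost the call with limma-voom (adjusted p = 0.121 and 0.0578), Selenoh with scaling to total counts, and Csrp1 and Selenoh on FPKM.

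The genes whose pattern was most like that of Mt1 were found by Pearson's r of log2(CPM + 1), centred within each stage, over the 14 libraries among 8190 genes with a mean of at least 5 CPM. The 5 most alike were Fbxo16 (r = 0.877), Grsf1 (0.851), Gng12 (0.85), Gli3 (0.848) and Exoc5 (0.839), and the 3 least alike were Clpx (-0.981), Myo1e (-0.908) and Trpm6 (-0.89). These r share the libraries, their scaling and the split of the genotypes, and they are a description. Gli3 was at 13 CPM in GV WT, 52.9 in GV CKO, 64 in ovulated WT and 144 in ovulated CKO oocytes, as group means. Among the listed genes, Slc39a6 (0.633), Slc30a1 (0.557) and Slc39a10 (0.538) had the highest r with Mt1, and Mt2 (0.158), Mtf1 (0.157) and Slc30a9 (-0.0414) the lowest. The pair most alike among the others were Mtf1 and Slc30a1 (0.666).

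For the other listed genes the likeness was in part higher. Mtf1 was most like Max (0.964) and Rpia (0.898), Slc30a1 most like Atp2b4 (0.956) and Ywhag (0.937), and Slc30a9 most like Atpaf1 (0.875) and Eif2s1 (0.846). Slc39a6 was most like Tdrd1 (0.95) and Slc35f3 (0.904), and Slc39a10 most like Naa30 (0.945) and Tsc22d2 (0.943). For Mt2, with 1 to 21 counts a library, the highest were Ptpn12 (0.836) and Lmo3 (0.83).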

How the data were processed

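RNA was measured by SMART-Seq2 in 14 mouse oocyte libraries, grouped by the stage and genotype in the labels. Per stage, the authors deposited a table of expected counts (estimated counts per gene, in part fractional) and a table of FPKM values, which the authors scaled to depth and gene length. The build is mm10, per the submitters' processing notes, and the aligner and counting tool are not given in the sources used here.

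Expected counts were rounded to whole numbers. Genotypes were compared on each stage's own libraries, and stages and the stage difference on all 14 libraries over genes in both tables, with edgeR 4.0.16 (TMM, the robust quasi-likelihood test, and filterByExpr at a count of 10) in R 4.3.3. P-values were adjusted by Benjamini-Hochberg over all genes tested, with a threshold of 0.05. Printed CPM values use the TMM scale of the 14 libraries. Alternatives were DESeq2 1.42.0, limma 3.58.1 (voom on counts, and log2(FPKM + 0.1) or log2(FPKM + 1)), other scalings, no filter, a replicate block, and leaving out each library. The script was tested on simulated counts.

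The 7 genes, the lists and the tests were chosen with earlier results of these data known. The 7 genes and Clpx were always named. From each list up to 4 genes that passed per direction, by p, and the 2 with the highest mean FPKM could be named, besides neighbours of Mt1 and the genes most like each listed gene. Cox17 in ovulated oocytes, Gli3's levels, Mt3 and Mt4 were singled out after their values were seen. Replicate numbers are shared by the groups, but same-numbered WT and CKO libraries did not all deviate together, so they were not taken as pairs. Promoter windows and gene positions are from RefSeq tables of GRCm38.p6, transcripts from GENCODE.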

Additional observations from a re-analysis of the deposited data

Results flagged for a closer look

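In 18 groups of 4 libraries checked for the gap between an extreme library and its nearest neighbour, 2 gaps exceeded Dixon's 95% critical value for 4 samples, and chance flags about 1 in 20 groups. Mtf1 was at 31.3 CPM in GV CKO replicate 4, where the other 3 GV CKO libraries had 48.2 to 50 CPM (gap 0.902 of the range). Clpx was at 58.1 CPM in GV WT replicate 1, where the other 3 GV WT libraries had 39.6 to 40 CPM (gap 0.978 of the range).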

How the results depend on the processing

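Counts of genes that passed moved most. Between genotypes in GV oocytes they were 39 with DESeq2 and 3 to 6 with single libraries left out. In ovulated oocytes they were 114 with DESeq2, 64 in the fit of the 14 libraries and 1 to 201 with single libraries left out. The stage difference gave 64 with DESeq2, 0 with limma-voom and 0 to 498 with single libraries left out. Replicate numbers do not pair the libraries: same-numbered WT and CKO libraries correlated in their deviations at -0.277 to 0.626 in GV and -0.344 to 0.43 in ovulated oocytes. With them as a replicate block, the count for the stages in CKO was 4780 and that for the stage difference 0, the Mt1 stage difference was 0.12, and Mt2 between stages in CKO was 0.51 on the log2 scale. Under the block the stage calls of Slc30a1 (1.06, adjusted p = 0.0773) and Mt4 (1.41, adjusted p = 0.131) in WT and of Mt4 in CKO (0.73, adjusted p = 0.395) were lost. So were the WT stage calls of Slc30a2, Slc30a7, Slc39a9, Slc39a14, Gclc, Selenow, Csrp1, Fth1, Me1, Slc7a11, Fkbp5, Dusp1 and Astl, and the CKO stage calls of Slc30a7, Slc39a3, Slc39a9, Slc39a13 and Slc39a14, at adjusted p from 0.0516 to 0.365.

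Of the other values that changed sign, none passed in either form, and the cause was not tested. They are log2 values. With scaling to total counts they were 0.10 for the Mt1 stage difference, -0.041 for Mtf1 and -0.033 for Slc30a9 between genotypes in GV oocytes, 0.22 in WT and 0.61 in CKO for Slc39a6 between stages, and 0.21 for Mt2 between stages in CKO. On FPKM with a pseudocount of 0.1 and of 1 they were, in that order, 0.51 and 0.17, -0.077 and -0.059, -0.017 and -0.013, 0.16 and 0.16, 0.57 and 0.56, and 0.10 and 0.086. The Mt1 stage difference was 0.18 with limma-voom. Mtf1 in ovulated oocytes was -0.0092 with DESeq2 and with its size factors, and Slc39a6 between stages in CKO was 0.0078 with both and 0.038 with no filter.

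With single libraries left out, the ranges that crossed 0 were -0.63 to 1.48 for the Mt1 stage difference, -0.77 to 0.38 for Mt2 between stages in CKO, -0.51 to 0.14 for Mt2 and -0.32 to 0.13 for Mt4 between genotypes in GV oocytes, -0.24 to 0.37 for Mtf1 and -0.018 to 0.26 for Slc39a10 between genotypes in ovulated oocytes, and -0.38 to 0.052 in WT and -0.29 to 0.29 in CKO for Slc39a6 between stages. Counts of 1 to 21 limit what can be said of Mt2, and 3 ovulated libraries a group limit the genotype test there. The values of Mt1 between genotypes were 5.64 to 6.16 in GV and 5.26 to 7.33 in ovulated oocytes with single libraries left out. Slc39a10 and Slc30a9 kept their rise between stages past the threshold in both genotypes under every alternative run.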
